A study of Mus musculus with 12 samples.

Results

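The enzymes that write and erase acetyl and methyl groups on histones, and methyl groups on DNA, were followed in the medial prefrontal cortex of mice as 36 genes of the 55401 gene IDs in the deposited count table. The genes were taken by symbol: 11 zinc-dependent histone deacetylases, 2 sirtuins, 2 DNA methyltransferases, 3 TET dioxygenases, 5 histone acetyltransferases, 5 genes of the KMT2 family, 4 methyltransferases of H3K27 and H3K9 and 4 histone demethylases. Each symbol matched 1 gene ID, and the rule used no threshold on a measured value. All 12 libraries came from male mice that had gone through 2 weeks of extinction training in conditioned place preference (CPP), in which a chamber paired with morphine is first preferred and the preference is then lost. In the first group (4 libraries) an adeno-associated virus (AAV) directed against the serotonin receptor 5-HT6R was given together with morphine. The second group (4 libraries) carried a scramble AAV and received morphine, and the third (4 libraries) carried the scramble AAV and received saline. Every library therefore came from tissue with an AAV and from an animal that went through extinction, and no group combined the knockdown with saline. The promoter of the viral construct, the cells it reached and the age and strain of the mice were not given with the samples. Whether the 4 libraries of a group are separate animals is not stated. The p-values hence refer to the spread among these samples, some of which may be technical. The series asks which genes and pathways follow the loss of 5-HT6R in extinction.

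Acetyl groups on histone tails are added by acetyltransferases and removed by deacetylases, and acetylated chromatin is generally open to transcription. Methylation of H3K4 marks active promoters and enhancers, whereas methylation of H3K9 and H3K27 marks repressed chromatin, and each mark has its own methyltransferases and demethylases. DNA methylation is placed mainly on the C of CG dinucleotides by DNA methyltransferases and is oxidised by TET enzymes; neurons of the cortex use several of these enzymes in memory and in the response to drugs of abuse.

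Start regions of 28 of the 36 genes were found in the RefSeq table (GRCm38.p6); Hdac1, Hdac3, Hdac10, Kat6a, Kmt2b, Kmt2e, Kdm5a and Kdm6b were not. The 250 bases before the start are shown for 3 genes, to set CG-rich starts beside a CG-free one: Kmt2d and Hdac4 are followed library by library in the results, and Hdac9, of the same class as Hdac4, had no CG in this window. Capitals mark each CG dinucleotide, the substrate of the DNA methylation enzymes, and each sequence is on the gene's own minus strand.
Kmt2d promoter, chr15:98871206-98871455, minus strand: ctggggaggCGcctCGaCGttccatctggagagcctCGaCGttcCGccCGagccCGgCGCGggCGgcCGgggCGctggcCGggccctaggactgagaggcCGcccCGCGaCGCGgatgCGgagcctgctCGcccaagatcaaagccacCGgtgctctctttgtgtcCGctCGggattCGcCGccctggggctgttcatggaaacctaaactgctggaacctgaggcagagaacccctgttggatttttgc
Hdac4 promoter, chr1:92180342-92180591, minus strand: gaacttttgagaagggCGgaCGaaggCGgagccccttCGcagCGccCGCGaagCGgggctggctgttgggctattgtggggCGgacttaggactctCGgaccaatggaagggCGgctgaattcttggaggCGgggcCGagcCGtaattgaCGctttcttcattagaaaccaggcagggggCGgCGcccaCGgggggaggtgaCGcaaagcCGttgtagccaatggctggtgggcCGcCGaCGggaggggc
Hdac9 promoter, chr12:34917096-34917345, minus strand: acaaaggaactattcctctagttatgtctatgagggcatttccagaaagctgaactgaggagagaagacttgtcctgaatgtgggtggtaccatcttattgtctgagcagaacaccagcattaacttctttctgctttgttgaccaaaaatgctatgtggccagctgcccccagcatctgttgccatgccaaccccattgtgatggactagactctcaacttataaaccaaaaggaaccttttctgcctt
The Kmt2d stretch held 26 CG dinucleotides at 67.6% G plus C, the Hdac4 stretch 23 at 65.2% and the Hdac9 stretch 0 at 44.4%. In the 300-base windows of the table (250 bases before and 50 after the start), 24 of the 28 genes (85.7%) had at least 1 start with at least 50% G plus C and an observed-to-expected CG ratio of at least 0.6. The same held for 48.3% of 17491 protein-coding genes and for 9717 of all 27025 genes in the table. Tet2 had 57 and Kmt2c 56 CG dinucleotides in that window. Hdac9 had another start, not shown, with 3 CG dinucleotides in its 300-base window. Which start was in use in this tissue was not determined. These counts describe the reference sequence, and DNA methylation itself was not measured.

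All 36 genes were expressed. Each had at least 174 counts in every library, and together they took between 0.266 and 0.302% of counts per library. Levels between genes were compared as CPM (the scaled share of a library's counts) per kilobase of annotated exon, averaged over the 12 libraries, with the lowest and highest library in brackets. This length joins the exons of all annotated transcripts of a gene. Which transcripts were in use was not determined, so the order of all genes by level is approximate. Hdac11, the only class IV deacetylase, led at 48.9 CPM per kilobase (43.2 to 55.2), followed by Ehmt2, which methylates H3K9, at 43.1 (37.7 to 50.9). At the other end stood Tet1 at 0.607 (0.507 to 0.699) and Ezh2, the H3K27 methyltransferase of dividing cells, at 0.775 (0.601 to 1.22).

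**Figure D1:**
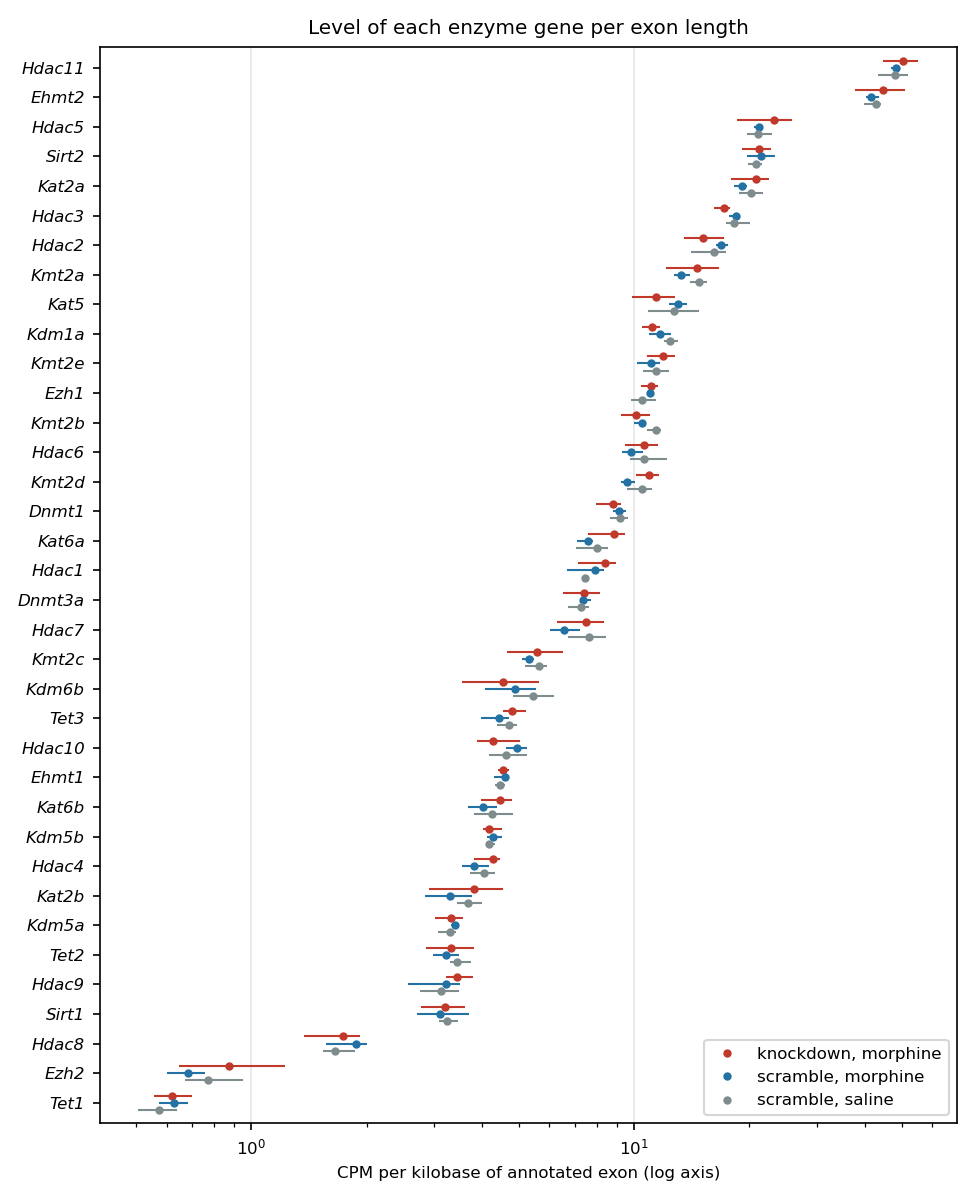
Level of each of the 36 enzyme genes in CPM per kilobase of annotated exon on a log axis; dots are the group means and lines run from the lowest to the highest of the 4 libraries, with knockdown and morphine above scramble and morphine and scramble and saline. Hdac11 and Ehmt2 lie at the top, Hdac8, Ezh2 and Tet1 lie apart at the bottom, and the 3 groups of each gene lie close together.

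Levels also differed between genes of 1 class. Of the class I deacetylases, Hdac3 stood at 17.9, Hdac2 at 16.0, Hdac1 at 7.91 and Hdac8 at 1.75 CPM per kilobase. Among class IIa deacetylases, which move between nucleus and cytoplasm with neuronal activity, Hdac5 stood at 21.8, Hdac7 at 7.22, Hdac4 at 4.05 and Hdac9 at 3.26. Hdac6, a mainly cytoplasmic deacetylase of tubulin, stood at 10.3, and Hdac10, a deacetylase of polyamines, at 4.62. Both sirtuins are NAD-dependent, and Sirt2, a deacetylase abundant in myelinating cells, stood at 21.1 against 3.19 for Sirt1.

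Of the DNA methylation enzymes, the maintenance enzyme Dnmt1 stood at 9.03 and the de novo enzyme Dnmt3a at 7.35 CPM per kilobase. Their order was the reverse in CPM not divided by length, at 66.6 for Dnmt1 and 122 for Dnmt3a. Tet3 stood at 4.64, Tet2 at 3.33 and Tet1 at 0.607 CPM per kilobase. Kat2a led the acetyltransferases at 20.1, ahead of Kat5 at 12.4, Kat6a at 8.13, Kat6b at 4.25 and Kat2b at 3.61. Kat2a and Kat2b are the alternative catalytic subunits of the SAGA complex, Kat5 that of NuA4, and Kat6a and Kat6b are paralogs that act on H3. In the KMT2 family, Kmt2a stood at 14.2, Kmt2e at 11.5, Kmt2b at 10.6, Kmt2d at 10.3 and Kmt2c at 5.50.

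Ezh1, the paralog of Ezh2 found in non-dividing cells, stood at 10.8 CPM per kilobase, well above Ezh2. Ehmt1, the partner of Ehmt2, stood at 4.54. The H3K4 demethylases Kdm1a, Kdm5b and Kdm5a stood at 11.7, 4.22 and 3.34, and Kdm6b, which removes H3K27 methylation, at 4.96. Ranked in this way, Ehmt2 and Hdac5, Sirt1 and Hdac8, and Hdac8 and Ezh2 were the only neighbours whose ranges over the 12 libraries did not overlap. All other neighbours in the order overlapped in range. Annotated exons of 16 of the genes overlap another gene, in most cases little; the shares were 22.4% for Hdac4 (with Gm26720, opposite strand), 17.9% for Hdac11 (with Gm44002, opposite strand), 12.1% for Kat5 (with Rnaseh2c) and 9.31% for Kmt2e (with Srpk2), so the levels of these 4 are less certain.

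Total counts ran from 41483220 to 65739423 per library. Markers of cortical excitatory neurons summed to 4329 to 5707 CPM in knockdown with morphine, 4956 to 5361 in scramble with morphine and 4739 to 5373 in scramble with saline, and none of the defining markers listed for any of 10 cell classes was at 0. Markers of striatal projection neurons summed to 98.1 to 116, 125 to 149 and 129 to 154 CPM in the same order. The annotated ribosomal RNA gene CT010467.1 took 4.57 to 9.38% of counts in knockdown with morphine, 2.38 to 3.04% in scramble with morphine and 3.58 to 5.63% in scramble with saline, so the morphine groups did not overlap. The targeted gene Htr6 averaged 4.77 ± 0.763 CPM in knockdown with morphine, 5.22 ± 0.320 in scramble with morphine and 6.17 ± 1.60 in scramble with saline (SD, n = 4 each). Between the morphine groups its log2 fold change was -0.13 (SE 0.18 and adjusted p = 0.823 by edgeR), with a 95% interval of 0.696 to 1.198-fold, so a lower Htr6 level was not detected in the libraries labelled as knockdown.

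The enzyme genes varied less between replicates than most genes. The median within-group SD of log2 CPM over the 36 genes was 0.117, from 0.0491 for Ehmt1 to 0.248 for Ezh2. Of the 36, 26 lay below 0.136, the median of the 11569 genes in the same range of mean CPM. Within that range, genes were not matched for level. The median of mean CPM was 68.2 for the enzyme genes and 8.51 for all genes tested, and the part of level in the spread was not tested. The knockdown libraries were the most spread: the median SD of the enzyme genes was 0.133 in knockdown with morphine, 0.0708 in scramble with morphine and 0.0943 in scramble with saline, and 0.156, 0.0967 and 0.114 for genes in the same CPM range. The highest of the 12 libraries was a knockdown library for 21 genes and the lowest was a knockdown library for 19. Knockdown replicate 2 was the lowest library for 9 genes. Such counts were not taken over all genes, so they are not a trait of the enzyme genes. The median SD of all genes was also largest in knockdown with morphine (0.208), against 0.146 in scramble with morphine and 0.163 in scramble with saline. In bulk tissue, fewer cells of a type and less RNA per cell cannot be told apart for any of these values.

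**Figure D2:**
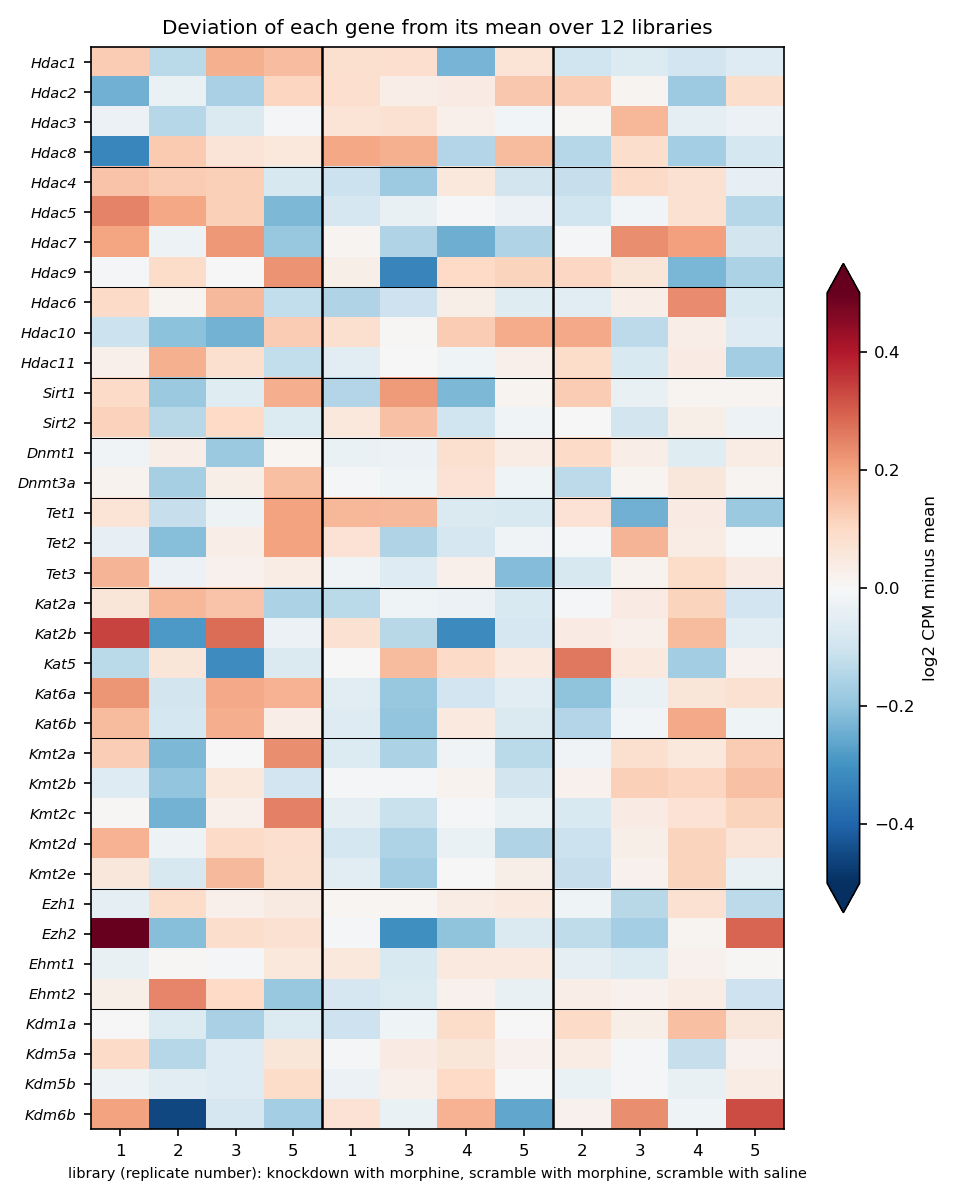
Deviation of log2 CPM from the mean over the 12 libraries, for each of the 36 genes (grouped by class between the thin lines) and each library (knockdown with morphine, scramble with morphine and scramble with saline from left to right, labelled by replicate number). Colours are strongest in the knockdown columns; Kmt2a to Kmt2e are mostly below their means in scramble with morphine, and the class IIa deacetylases are below theirs in knockdown replicate 5 except for Hdac9.

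The first comparison asked what the 5-HT6R virus did in mice given morphine. No enzyme gene passed the test in knockdown against scramble (0 of 36; 0% of 21958 genes tested; edgeR quasi-likelihood test, Benjamini-Hochberg adjusted p of 0.05), and DESeq2 and limma voom called 0 of the 36 as well. Over all genes DESeq2 called 164 (0.747%) and voom 0. The largest shifts were small: log2 fold changes ran from -0.21 for Hdac10 to 0.35 for Ezh2, with 22 genes above 0 and 14 below (50.7% of all genes were above 0), and a median of 0.05. At an unadjusted p under 0.05, 3 genes stood higher (8.33% of the list, against 5.87% of all genes), Kmt2d, Kat6a and Hdac4, and 0 stood lower (6.17% of all genes did). When libraries were scaled by their totals alone, 0 of the 36 stood higher and 5 lower at that p, against 3.04% of all genes higher and 12.8% lower. With TMM scaling over all genes, 2643 of 21958 had such a p in either direction. The 95% intervals excluded a change of 1.5-fold in either direction for 35 of the 36 genes and of 1.3-fold for 28. The exception at 1.5-fold was Ezh2, whose interval reached 1.69-fold.

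Kmt2d (ENSMUSG00000048154, mm10 chr15:98831669-98871204, minus strand), which mono-methylates H3K4 at enhancers, had the smallest p. Its libraries held 232, 202, 219 and 218 CPM in knockdown with morphine, against 193, 185, 201 and 185 CPM in scramble with morphine and 191, 209, 222 and 215 CPM in scramble with saline. All 4 knockdown libraries stood above all 4 scramble libraries given morphine, by a narrow margin at the nearest pair, and within the range of the saline libraries or above it. The log2 fold change between the morphine groups was 0.19 (SE 0.06, 95% interval 1.04 to 1.25-fold, and adjusted p = 0.313 by edgeR). Kmt2d was the only one of the 36 genes whose morphine groups did not overlap; 2.59% of all genes stood higher without overlap and 3.26% lower.

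The other KMT2 genes were spread around smaller values. Kmt2a, the founding H3K4 methyltransferase of the family, stood at 0.14 (SE 0.08), Kmt2e, for which no such activity is established, at 0.10 (SE 0.07), Kmt2c at 0.07 (SE 0.08) and Kmt2b at -0.05 (SE 0.06) on the log2 scale. The family median was 0.10.

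Among acetyltransferases, 4 of 5 stood above 0 (median 0.15). Kat6a (ENSMUSG00000031540, mm10 chr8:22859535-22943259, plus strand) held 86.7, 69.6, 84.7 and 84.0 CPM in knockdown with morphine, against 71.4, 65.2, 69.6 and 71.6 CPM in scramble with morphine and 64.6, 72.5, 77.5 and 78.5 CPM in scramble with saline. Replicates 1, 3 and 5 of the knockdown lay above every scramble library, and replicate 2 lay among them. The log2 fold change was 0.23 (SE 0.08, 95% interval 1.04 to 1.31-fold, and adjusted p = 0.324 by edgeR). Kat6b stood at 0.15 (SE 0.08), Kat2a at 0.12 (SE 0.07) and Kat2b at 0.21 (SE 0.13). Kat5 stood on the other side, with 39.2, 45.0, 34.6 and 41.05 CPM in knockdown with morphine, against 43.2, 48.1, 46.1 and 44.7 CPM in scramble with morphine and 51.9, 44.6, 38.1 and 43.7 CPM in scramble with saline. Knockdown replicate 2 overlapped the morphine scramble libraries, and the log2 fold change was -0.19 (SE 0.09 and adjusted p = 0.438 by edgeR).

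All 4 class IIa deacetylases stood above 0 (median 0.15), and 3 of 4 with the share of CT010467.1 as a covariate. Hdac4 (ENSMUSG00000026313, mm10 chr1:91928779-92195699, minus strand) held 70.5, 69.7, 69.3 and 60.4 CPM in knockdown with morphine, against 59.1, 56.1, 66.2 and 59.8 CPM in scramble with morphine and 58.8, 68.2, 67.3 and 62.0 CPM in scramble with saline. Knockdown replicate 5 fell within the scramble range and the other 3 lay above it. The log2 fold change was 0.16 (SE 0.07, 95% interval 1.005 to 1.25-fold, and adjusted p = 0.396 by edgeR). Hdac7 (ENSMUSG00000022475, mm10 chr15:97792664-97844502, minus strand) held 55.6, 47.6, 56.4 and 42.4 CPM in knockdown with morphine, against 48.8, 43.6, 40.8 and 43.5 CPM in scramble with morphine and 48.0, 56.9, 55.9 and 45.4 CPM in scramble with saline. Its groups overlapped, and the log2 fold change was 0.19 (SE 0.10 and adjusted p = 0.454 by edgeR). Hdac9 stood at 0.10 (SE 0.10).

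Hdac5, looked at by library after its values were seen, held 227, 218, 208 and 163 CPM in knockdown with morphine, against 180.3, 186, 190.1 and 187 CPM in scramble with morphine and 178, 189, 201 and 173 CPM in scramble with saline. Knockdown replicates 1, 2 and 3 lay above all 8 scramble libraries and replicate 5 lay below all 8. The log2 fold change was 0.13 (SE 0.09 and adjusted p = 0.554 by edgeR), and 0.22 (SE 0.06 and adjusted p = 0.0701 by edgeR) without knockdown replicate 5. That adjusted p was the lowest of any enzyme gene in any comparison under any alternative run.

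The other deacetylases were divided. In class I, Hdac2 stood at -0.15 (SE 0.08), Hdac8 at -0.12 (SE 0.13), Hdac3 at -0.10 (SE 0.06) and Hdac1 at 0.08 (SE 0.09) on the log2 scale. Hdac10 held 14.4, 13.4, 13.1 and 17.0 CPM in knockdown with morphine, against 16.5, 15.6, 17.0 and 17.8 CPM in scramble with morphine and 17.8, 14.1, 15.9 and 14.8 CPM in scramble with saline. Knockdown replicates 1, 2 and 3 lay below the morphine scramble libraries and replicate 5 among them, and the log2 fold change was -0.21 (SE 0.10 and adjusted p = 0.445 by edgeR). Hdac6 stood at 0.11 (SE 0.08), Hdac11 at 0.06 (SE 0.07), Sirt1 at 0.04 (SE 0.11) and Sirt2 at -0.02 (SE 0.07).

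The DNA methyltransferases stood near 0. Dnmt3a averaged 123 ± 11.1 CPM in knockdown with morphine and 123 ± 4.02 CPM in scramble with morphine (SD, n = 4 each), with a 95% interval of 0.909 to 1.11-fold. Dnmt1 averaged 64.8 ± 4.31 and 67.2 ± 2.62 CPM in the same groups (interval 0.880 to 1.06-fold). Tet3 stood at 0.12 (SE 0.07), Tet2 at 0.05 (SE 0.08) and Tet1 at -0.01 (SE 0.12) on the log2 scale.

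Of the H3K27 and H3K9 methyltransferases, Ezh1 and Ehmt1 had log2 fold changes of 0.00 and -0.01 (SE 0.06 each) and Ehmt2 of 0.10 (SE 0.08). Ezh2, also looked at by library after its values were seen, held 8.16, 4.33, 5.43 and 5.39 CPM in knockdown with morphine, against 5.05, 4.01, 4.36 and 4.82 CPM in scramble with morphine and 4.62, 4.47, 5.15 and 6.34 CPM in scramble with saline. Knockdown replicate 1 alone stood far above the others, and the SE of 0.19 was the widest of the list. All 4 demethylases stood below 0, from -0.03 for Kdm5b to -0.11 for Kdm6b, with a median of -0.05 and adjusted p of at least 0.677 (edgeR).

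The share of CT010467.1 did not overlap between the morphine groups. Markers of several cell classes leaned to 1 side, but no marker was called. The summed CPM of oligodendrocyte, fibroblast and endothelium markers overlapped between these groups. Sums of striatal projection neuron markers did not overlap (98.1 to 116 against 125 to 149 CPM), with 3 of 6 markers above 0. The 6 oligodendrocyte markers summed to 1143 to 1962 CPM in knockdown with morphine, 1784 to 2436 CPM in scramble with morphine and 1690 to 2217 CPM in scramble with saline, and all 6 stood below 0 between the morphine groups (median log2 fold change -0.32); Sirt2 stood at -0.02. All 7 markers of pericytes and meningeal fibroblasts (median 0.37), all 5 of endothelium (0.23), all 4 of oligodendrocyte precursors (0.17) and all 5 of blood (0.13) stood above 0, against 1 of 5 of microglia (-0.25), 2 of 6 of astrocytes (-0.11) and 2 of 7 of excitatory neurons (-0.10). The fibroblast markers summed to 245 to 357 CPM in knockdown with morphine and 219 to 280.3 CPM in scramble with morphine, and those of endothelium to 204 to 277 and 179.8 to 212.5 CPM in the same groups. Their part in the values above was not tested. With the CT010467.1 share as a covariate, 0 of the 36 genes had an unadjusted p under 0.05. Leaving out knockdown replicate 5 raised the calls over all genes to 375 and the enzyme genes at an unadjusted p under 0.05 to 9 (7 higher, 2 lower), beside 18.5% of all genes. Leaving out knockdown replicate 2 raised the count of enzyme genes at that p to 8 (7 higher, 1 lower), beside 13.1% of all genes; 0 enzyme genes were called in both fits.

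**Figure D3:**
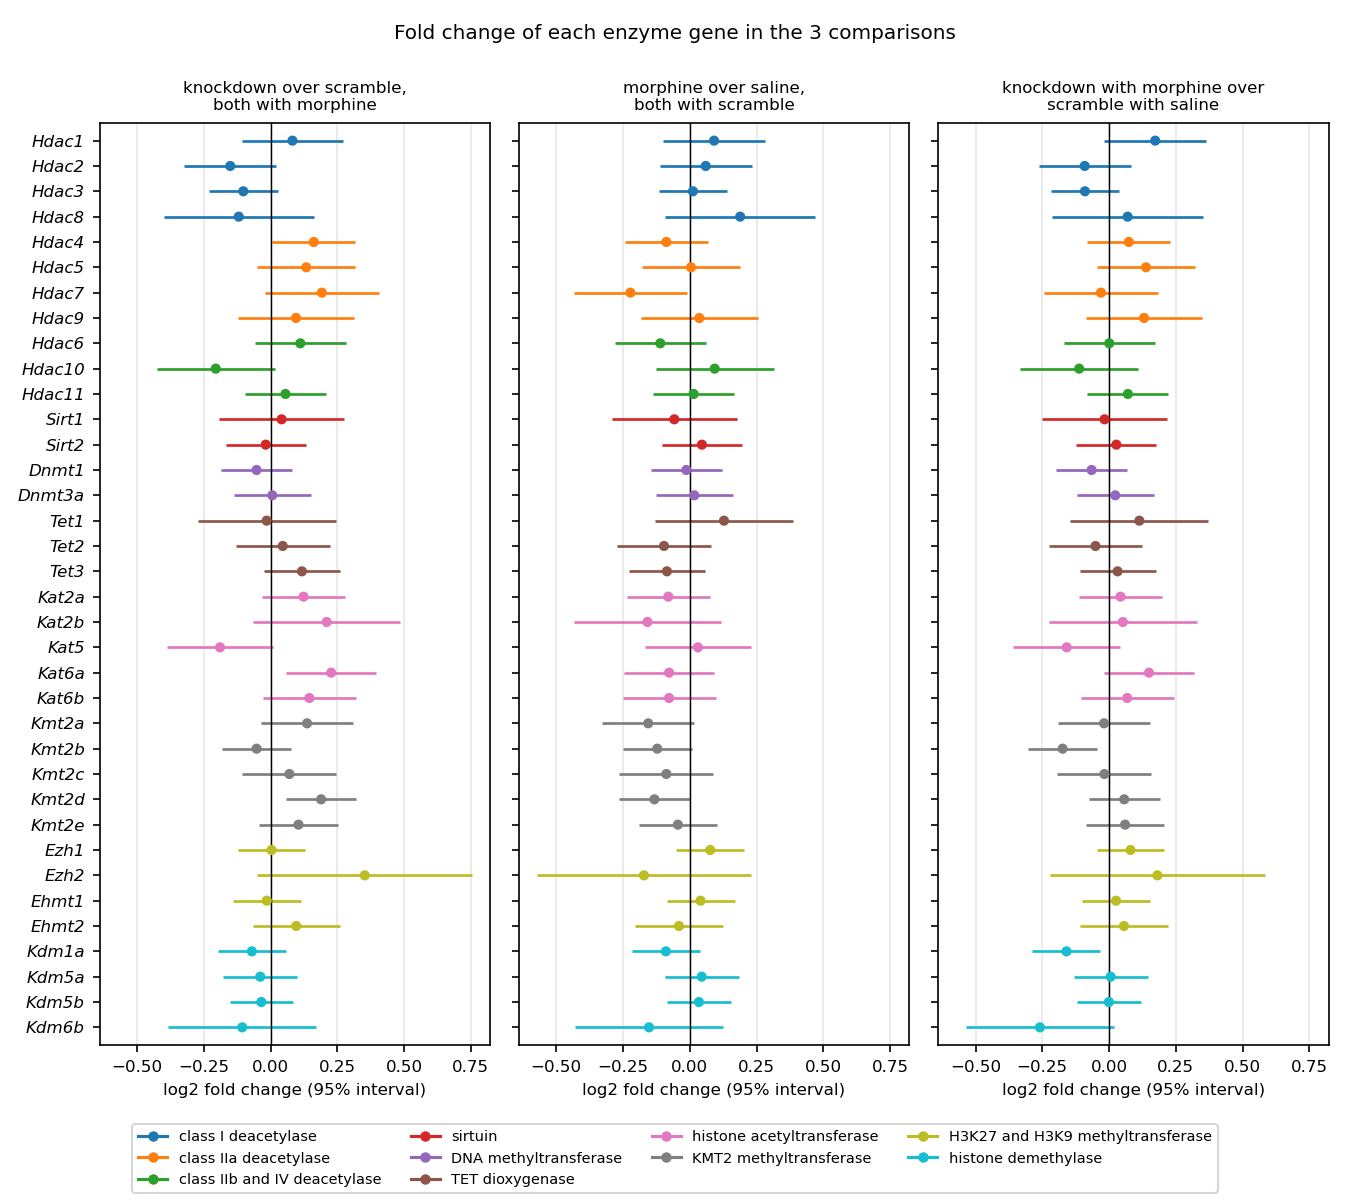
Log2 fold change (dots) with its 95% interval (lines) for each of the 36 genes in knockdown over scramble with morphine, morphine over saline with scramble, and knockdown with morphine over scramble with saline, coloured by class. Nearly all intervals cross 0; Kmt2d, Kat6a and Hdac4 lie just to the right of 0 on the left, Hdac7 and Kmt2d just to the left of 0 in the middle, and Kmt2b and Kdm1a to the left of 0 on the right.

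The second comparison asked what morphine left behind after extinction in mice with the scramble virus. It shares its scramble with morphine libraries with the first, and these enter the 2 fold changes with opposite signs, so the values are given side by side only. Again 0 of 36 enzyme genes passed the test (0% of all genes; edgeR adjusted p of 0.999 for every enzyme gene), and DESeq2 and limma voom called 0 of the 36; over all genes they called 4 and 0. Log2 fold changes ran from -0.22 for Hdac7 to 0.19 for Hdac8, with 16 genes above 0 and 20 below (49.5% of all genes were above 0), and a median of -0.04. At an unadjusted p under 0.05, 0 stood higher (1.67% of all genes did) and 2 lower, Hdac7 and Kmt2d (5.56% of the list, against 1.82% of all genes). A change of 1.5-fold was outside the 95% interval of all 36 genes, and a change of 1.3-fold outside that of 30.

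Each of the 5 KMT2 genes stood lower with morphine, under every scaling tried, though none passed the test. Kmt2b (ENSMUSG00000006307, mm10 chr7:30568858-30588726, minus strand), an H3K4 methyltransferase of promoters, held 101, 102, 103 and 95.6 CPM in scramble with morphine, against 104, 111, 109.7 and 113 CPM in scramble with saline, and 97.3, 88.8, 106 and 95.3 CPM in knockdown with morphine. It was the only enzyme gene whose morphine and saline libraries did not overlap (1.55% of all genes stood higher and 1.77% lower without overlap), with 103.2 and 103.6 CPM at the nearest pair. The log2 fold change was -0.12 (SE 0.06, 95% interval 0.841 to 1.005-fold). Kmt2a held 225, 212, 233.6 and 215 CPM in scramble with morphine, against 233.5, 249.8, 245 and 258 CPM in scramble with saline, and 257, 202, 237 and 278 CPM in knockdown with morphine. Only scramble with morphine replicate 4 reached the saline range, and the log2 fold change was -0.16 (SE 0.08). For Kmt2d, whose libraries are given above, it was -0.13 (SE 0.06, 95% interval 0.832 to 0.9997-fold); saline replicate 2 lay within the morphine range. Kmt2c and Kmt2e stood at -0.09 (SE 0.08) and -0.04 (SE 0.07), and the family median was -0.12.

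The deacetylases did not share a direction across classes. Hdac7 had the smallest p, with a log2 fold change of -0.22 (SE 0.10, 95% interval 0.740 to 0.993-fold), while Hdac4 stood at -0.09 (SE 0.07), Hdac5 at 0.00 (SE 0.09) and Hdac9 at 0.04 (SE 0.10). All 4 class I genes stood above 0 under every scaling tried, with a median of 0.08, but 2 of 4 did so without saline replicate 4. Hdac8 held 9.72, 9.62, 7.58 and 9.48 CPM in scramble with morphine, against 7.61, 9.01, 7.45 and 7.90 CPM in scramble with saline, and 6.64, 9.30, 8.85 and 8.76 CPM in knockdown with morphine. Scramble with morphine replicate 4 lay among the saline libraries and the other 3 above them, and the log2 fold change was 0.19 (SE 0.13). Hdac1, Hdac2 and Hdac3 stood at 0.09 (SE 0.09), 0.06 (SE 0.08) and 0.01 (SE 0.06).

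The remaining classes held small values of either sign. Hdac6 stood at -0.11 (SE 0.08), Hdac10 at 0.09 (SE 0.10) and Hdac11 at 0.01 (SE 0.07), and the sirtuins Sirt1 and Sirt2 at -0.06 (SE 0.11) and 0.05 (SE 0.07). Ezh1 stood at 0.08 (SE 0.06), Ezh2 at -0.17 (SE 0.19), Ehmt1 at 0.04 (SE 0.06) and Ehmt2 at -0.04 (SE 0.08). None of these intervals excluded 0. Of the acetyltransferases, 4 of 5 stood below 0, from -0.16 for Kat2b to -0.08 for Kat6a, and Kat5 stood at 0.03. Dnmt1 and Dnmt3a stood at -0.01 (SE 0.06) and 0.02 (SE 0.07), Tet2 and Tet3 at -0.10 (SE 0.08) and -0.09 (SE 0.07) and Tet1 at 0.13 (SE 0.12). Kdm1a (ENSMUSG00000036940, mm10 chr4:136550540-136602723, minus strand), the H3K4 demethylase of the CoREST complex, held 56.5, 59.8, 64.7 and 60.7 CPM in scramble with morphine, against 64.8, 61.9, 67.3 and 63.1 CPM in scramble with saline, and 60.5, 57.7, 54.2 and 57.8 CPM in knockdown with morphine. Its morphine and saline ranges overlapped, and the log2 fold change was -0.09 (SE 0.06); Kdm5a and Kdm5b stood at 0.04 and 0.03 (SE 0.06 each) and Kdm6b at -0.15 (SE 0.13). With all libraries, 2 enzyme genes and 3.48% of all genes had an unadjusted p under 0.05. Without scramble with morphine replicate 3 or 5 or saline replicate 3 or 4, the enzyme count fell to 0 (2.55 to 2.92% of all genes). It fell to 1 without scramble with morphine replicate 1 or 4 or saline replicate 5 (3.218 to 4.255%). It rose to 3 without saline replicate 2 (3.14%) or knockdown replicate 5 (4.07%), and to 4 without knockdown replicate 2 (3.75%). Knockdown libraries are in neither group. All 5 blood markers (median log2 fold change -0.73) and all 5 of endothelium (-0.12) stood below 0 with morphine, and all 6 of astrocytes (0.18) and all 7 of pericytes and meningeal fibroblasts (0.18) above 0, with 0 called; blood markers summed to 118 to 187 CPM in scramble with morphine and 96.9 to 415 CPM in scramble with saline. Their part in these values was not tested.

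**Figure D4:**
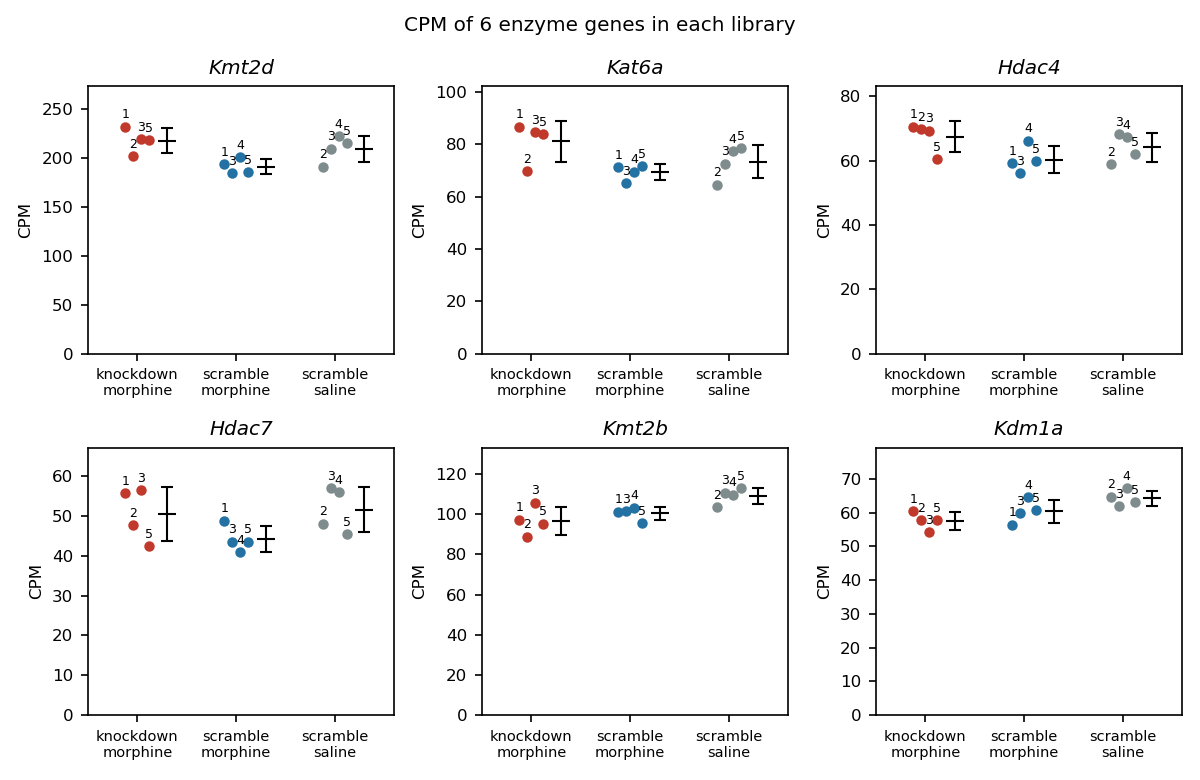
CPM of 6 enzyme genes in each library (points, labelled by replicate number), with the group mean and SD beside them (n = 4), from left to right in knockdown with morphine, scramble with morphine and scramble with saline; each vertical axis starts at 0. Kmt2d is lowest in scramble with morphine, Kmt2b is highest in scramble with saline without overlap with scramble with morphine, and Kdm1a is highest in scramble with saline without overlap with knockdown with morphine.

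In the third comparison, knockdown with morphine against scramble with saline, virus and drug differ together and both groups are those already described. No enzyme gene passed the test (0 of 36; 0.0137% of all genes, 3 genes, did; edgeR), and DESeq2 and limma voom called 0 of the 36; over all genes they called 147 (0.669%) and 0. Log2 fold changes ran from -0.26 for Kdm6b to 0.18 for Ezh2, with 22 genes above 0 and 14 below (49.6% of all genes were above 0), and a median of 0.03. At an unadjusted p under 0.05, 0 stood higher (4.97% of all genes did) and 2 lower, Kmt2b and Kdm1a (5.56% of the list, against 4.37% of all genes). A change of 1.5-fold was outside the 95% interval of all 36 genes, and a change of 1.3-fold outside that of 34.

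Kmt2b averaged 96.8 ± 7.02 CPM in knockdown with morphine and 109 ± 3.997 CPM in scramble with saline (SD, n = 4 each), with a log2 fold change of -0.17 (SE 0.06, 95% interval 0.811 to 0.969-fold, and adjusted p = 0.384 by edgeR). Knockdown replicate 3 lay inside the saline range and the other 3 below it. Kdm1a averaged 57.5 ± 2.595 CPM in knockdown with morphine and 64.3 ± 2.32 CPM in scramble with saline, with a log2 fold change of -0.16 (SE 0.06, 95% interval 0.820 to 0.978-fold, and adjusted p = 0.422 by edgeR). It was the only enzyme gene whose groups did not overlap here; 2.18% of all genes stood higher without overlap and 2.16% lower. Kdm6b held 39.2, 24.7, 32.1 and 30.2 CPM in knockdown with morphine, against 34.6, 40.2, 33.5 and 42.9 CPM in scramble with saline and 35.9, 33.3, 38.5 and 28.4 CPM in scramble with morphine. Knockdown replicate 1 lay within the saline range, and the log2 fold change was -0.26 (SE 0.13 and adjusted p = 0.569 by edgeR).

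Hdac1 held 29.7, 24.6, 30.8 and 30.3 CPM in knockdown with morphine, against 25.3, 25.8, 25.4 and 25.9 CPM in scramble with saline and 28.7, 28.8, 23.0 and 28.5 CPM in scramble with morphine. Knockdown replicate 2 lay below the saline libraries and the other 3 above them, and the log2 fold change was 0.17 (SE 0.09 and adjusted p = 0.584 by edgeR). Kat6a and Kat5 stood at 0.15 (SE 0.08 and adjusted p = 0.590 by edgeR) and -0.16 (SE 0.09 and adjusted p = 0.637 by edgeR). The groups of both overlapped. Dnmt3a stood at 0.02 and Dnmt1 at -0.07 (SE 0.07 and 0.06). All 4 methyltransferases of H3K27 and H3K9 stood above 0, from 0.03 for Ehmt1 to 0.18 for Ezh2, but 3 of 4 did so when libraries were scaled by their totals. All 7 markers of pericytes and meningeal fibroblasts (median log2 fold change 0.80) and all 4 of oligodendrocyte precursors (0.14) stood above 0 here, and all 6 of oligodendrocytes (-0.25) and all 5 of blood (-0.60) below, with 1 of 5 of microglia above 0 (-0.24) and 0 called. Their part in these values was not tested.

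Other genes of the same pathways, 114 in 6 lists (other sirtuins, deacetylase complexes, acetyltransferases, histone methyltransferases, demethylases, and DNA methylation partners and readers), were read in the same fits. No gene of these lists passed the test in any comparison. In knockdown against scramble with morphine, 11 stood higher and 5 lower at an unadjusted p under 0.05. Over all genes, 5.87% stood higher and 6.17% lower. Together the listed genes at that p are 14.0% of the lists, beside 12.04% of all genes in either direction. Crebbp, the acetyltransferase CBP that binds CREB, averaged 89.7 ± 6.44 CPM in knockdown with morphine and 75.0 ± 4.77 CPM in scramble with morphine (SD, n = 4 each). Its log2 fold change was 0.26 (SE 0.07 and adjusted p = 0.272 by edgeR, the lowest of the lists). Nsd1, an H3K36 methyltransferase, stood at 0.21 (SE 0.06 and adjusted p = 0.283 by edgeR), and Gatad2a, a subunit of the NuRD deacetylase complex, at 0.28 (SE 0.09 and adjusted p = 0.317 by edgeR). On the other side, Riox2, a ribosomal oxygenase placed among the histone demethylases, stood at -0.45 (SE 0.15 and adjusted p = 0.310 by edgeR) and Tbl1x, a subunit of the NCoR complex, at -0.23 (SE 0.08 and adjusted p = 0.315 by edgeR). The morphine groups did not overlap for Crebbp, Nsd1, Gatad2a, Riox2 and some other genes of the lists, and overlapped for Tbl1x. Over all genes, 2.59% stood higher without overlap and 3.26% lower.

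Within the lists, the deacetylase complexes held 4 genes higher and 1 lower at an unadjusted p under 0.05 of 19, the other acetyltransferases 3 and 1 of 22, the other histone methyltransferases 1 and 1 of 30, the other demethylases 1 and 2 of 19, the DNA methylation partners 2 and 0 of 19, and the other sirtuins 0 and 0 of 5. List medians ran from -0.04 for the other sirtuins to 0.08 for the DNA methylation partners. In morphine against saline, 0 of the 114 stood higher and 2 lower (1.75% of the lists, beside 3.48% of all genes in either direction). Over all genes, 1.67% stood higher and 1.82% lower. The 2 were Tada2b, an adaptor of SAGA, at -0.16 (SE 0.07), and Dnmt3b at -0.72 (SE 0.33), with an edgeR adjusted p of 0.999 for both. In knockdown with morphine against scramble with saline, 6 stood higher and 1 lower (6.14% of the lists, beside 9.345% of all genes in either direction). Over all genes, 4.97% stood higher and 4.37% lower. Crebbp stood at 0.22 (SE 0.07 and adjusted p = 0.377 by edgeR) and Prdm2, an H3K9 methyltransferase, at 0.17 (SE 0.06 and adjusted p = 0.417 by edgeR).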

How the data were processed

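RNA of the medial prefrontal cortex was sequenced in 12 libraries, and the authors deposited whole-number counts per gene. Oligo(dT) beads selected the RNA and the second strand was marked with dUTP, per the labels' protocols. Per the submitters' processing notes, cutadapt 1.9, HISAT2 2.0.4, StringTie 1.3.4d, DESeq2, edgeR and the mm10 build were used; their roles, the annotation and the use of strand in counting are not stated there, so the counts may be estimates, and genes that overlap another gene are uncertain.

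Symbols, coordinates and exon lengths came from GENCODE mouse release M21; 55141 of 55401 IDs had a symbol. Start sequences came from RefSeq (GRCm38.p6). The 36 genes, the other lists and the alternatives were chosen with earlier results of these data known.

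The test was that of edgeR 4.0.16 under R 4.3.3: filterByExpr with a minimum count of 10 (21958 genes, all 36 enzyme genes among them), TMM scaling, 1 mean per group over all 12 libraries (9 residual degrees of freedom; the biological variation coefficient was 23.2%), a robust quasi-likelihood fit, two-sided p-values and Benjamini-Hochberg adjustment over all genes at 0.05. Standard errors and 95% intervals came from the same fit. CPM used TMM-scaled totals. Depth ran from 41483220 to 65739423 counts, and the lowest count of an enzyme gene in a library was 174.

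Values in every library were given for the 6 genes with the smallest p in each comparison and for genes whose groups did not overlap in the first or the second comparison; Hdac5 and Ezh2 were added after their values were seen. Of each other list, at most 3 genes with the smallest p were named. The values of 1 gene of these lists are not reported here. Alternatives were other scalings, filters and tests (DESeq2 1.42.0, limma 3.58.1 with voom), fits of only the compared groups, a block for the replicate number, the share of CT010467.1 as a covariate, and libraries left out.

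The scripts were first tested on simulated data in which 200 genes were changed. For knockdown against scramble with morphine (21357 genes) recovery was 47.8, 61.2 and 97.0% at log2 changes of 0.5, 1 and 2. It was 41.8, 82.1 and 95.5% at those sizes for morphine against saline (21378 genes), and 47.8, 77.6 and 95.5% for both differing together (21386 genes).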

Additional observations from a re-analysis of the deposited data

Results flagged for a closer look

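In 8 of 117 groups of 4 libraries checked, 1 library stood apart from the other 3 by a gap that was large for the range of the group; chance gives about 1 in 20. In scramble with morphine, replicate 4 held 23.0 CPM of Hdac1 (28.5 to 28.8 in the other 3), 7.585 CPM of Hdac8 (9.476 to 9.725) and 128.6 CPM of Dnmt3a (120.2 to 121.3), and replicate 3 held 34.84 CPM of Ehmt1 (38.05 to 38.15). In knockdown with morphine, replicate 5 held 60.37 CPM of Hdac4 (69.28 to 70.51) and replicate 2 held 69.64 CPM of Kat6a (83.96 to 86.69). In the same replicate 2, the 36 genes together took 0.2662% of counts (0.2901 to 0.2933% in the other 3). In scramble with saline, replicate 5 held 219.1 CPM of Ehmt2 (239.4 to 242.1).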

How the results depend on the processing

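No enzyme gene passed an adjusted p of 0.05 in any of 2484 gene fits over 23 alternatives (lowest 0.0701, by edgeR). The 18 fold changes with the smallest p (6 per comparison) did not change sign. They were picked by their p in these same data, so their steady sign says little about the other genes. Counts of enzyme genes at an unadjusted p under 0.05 moved, as did the share of all genes at that p. For knockdown against scramble with morphine (3 higher and 0 lower; 12.04% of all genes), they were 0 higher and 5 lower with library totals (15.9%), 9 higher and 3 lower with voom (19.2%) and 0 with the CT010467.1 covariate (5.07%). For morphine against saline (0 higher and 2 lower; 3.48%), the counts, all of them lower, were 0 with library totals, 1 with no filter, 4 with voom (7.36%), 4 with the compared groups alone (4.72%), 0 with the covariate and 0 without saline replicate 4 and knockdown replicate 3 together. For knockdown with morphine against saline (0 higher and 2 lower; 9.35%), they were 0 higher and 4 lower with library totals (10.9%), 3 higher and 4 lower with voom (17.1%) and 1 lower without those 2 libraries. Leaving out 1 library gave 2 to 9, 0 to 4 and 1 to 5. In the third comparison these were 5 (2 higher) without knockdown replicate 2, beside 10.6% of all genes. They were 4 (1 higher) without knockdown replicate 5 (15.2%) and 1 without knockdown replicate 3 (7.45%).

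Over all genes, the first comparison (0 called) had 2 with no filter, 164 by DESeq2 and 5 without saline replicate 4 and knockdown replicate 3, and 0 to 375 without 1 library: 375 without knockdown replicate 5, 4 without saline replicate 4, 2 without knockdown replicate 3, and 1 without knockdown replicate 2 or saline replicate 5. The second (0 called) had 4 by DESeq2 and 1 with the compared groups alone, and 0 in each fit without 1 library. The third (3 called) had 5 with no filter, 147 by DESeq2, 5 with the compared groups alone and 0 with library totals, voom, the covariate or without both libraries; without 1 library it had 0 to 55: 55 without knockdown replicate 5, 7 without scramble with morphine replicate 4, 1 without saline replicate 3 and 0 in the rest. The cause was not tested.

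The median log2 fold change of the enzyme genes turned to -0.02 with library totals in the first and the third comparison (-0.0154 and -0.0192), and without 1 library it ran from -0.00357 (without knockdown replicate 5) to 0.0730 in the first and from -0.0131 (without knockdown replicate 1) to 0.0460 in the third. With library totals, the medians of the class IIb and IV deacetylases, the sirtuins, the TET enzymes and the H3K27 and H3K9 methyltransferases in the first comparison were -0.01, -0.05, -0.02 and -0.02.

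With the replicate number as a block, enzyme genes at an unadjusted p under 0.05 were 10 higher and 2 lower in the first comparison (12 in all; 16.5% of all genes) and 8, all lower, in the second (6.41%), and all genes called were 2, 1 and 0; the lowest adjusted p of an enzyme gene was 0.0915 (Kat6a, first comparison). Deviations from the group means correlated over 0.1 in 5 of 9 same-numbered pairs (from -0.0592 to 0.219) and in 2 of 39 other pairs. Those 2 were saline replicate 4 with knockdown replicates 1 (0.196) and 3 (0.251, the highest of all pairs). Of the 12 libraries, 6 correlated best with their own number, a hint from the data that the labels do not settle. As not every same-numbered pair was over 0.1, the numbers were not treated as pairs. The enzyme genes with the fewest counts, Ezh2, Hdac8 and Tet1, had standard errors of 0.19, 0.13 and 0.12 in the first comparison. Kdm6b and Kat2b, with means of 34.5 and 17.5 CPM, had 0.13 each, so wide errors were not confined to the lowest counts. Smaller shifts were not detectable in any of these genes.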

Other observations

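In knockdown against scramble with morphine, Dnmt3b and Uhrf1, both near 1 CPM, had the widest fold changes of the 114 other genes. Dnmt3b, the second de novo DNA methyltransferase, averaged 1.43 ± 0.271 CPM in knockdown with morphine, 0.761 ± 0.192 CPM in scramble with morphine and 1.25 ± 0.566 CPM in scramble with saline (SD, n = 4 each). Its log2 fold change was 0.90 (SE 0.33 and adjusted p = 0.333 by edgeR) in knockdown against scramble with morphine, and the libraries of these groups did not overlap. Uhrf1, which brings Dnmt1 to newly replicated DNA, averaged 1.21 ± 0.640, 0.565 ± 0.151 and 0.911 ± 0.156 CPM in the same groups, with a log2 fold change of 1.10 (SE 0.36 and adjusted p = 0.315 by edgeR) between the morphine groups. Neither passed the test. Both comparisons of these genes use the scramble with morphine libraries, where both genes had their lowest means.

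Kdm6a, the H3K27 demethylase related to Kdm6b, averaged 25.9 ± 1.02 CPM in scramble with morphine and 28.8 ± 0.690 CPM in scramble with saline without overlap (log2 fold change -0.16, SE 0.08 and adjusted p = 0.999 by edgeR), and 25.7 ± 2.69 CPM in knockdown with morphine.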
